A study of Homo sapiens with 24 samples.

Results

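H1 is an established human embryonic stem cell line. The data described here come from 6 of the 24 libraries of the study, 3 from primed H1 cells with a knockdown of CARHSP1 and 3 from primed H1 cells with a nontargeting control. The libraries were chosen by their titles and by the columns of the same name in the table of counts, and every gene that passed a filter on low counts was described, 15642 of the 60671 genes listed. Primed cells resemble the epiblast of the embryo after implantation. All 6 libraries carry doxycycline as their treatment, and the cells were grown in StemFlex medium. The labels do not say how the knockdown was made or whether a group stems from 1 clone. Nor do they say that replicates were grown apart, so a p-value here reflects the scatter among libraries that could be technical in origin. The other 18 libraries comprise the same line with a ZNF8 knockdown or a nontargeting control in the naive state, with a ZIC2 knockdown or a nontargeting control on day 2 of differentiation to ectoderm, and H9 cells in the primed and the naive state. The H1 groups all received doxycycline, and the title of the series concerns site-specific DNA-binding protein complexes.

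CARHSP1, calcium-regulated heat stable protein, is a small cytoplasmic protein built around a cold shock domain, a fold that binds single-stranded RNA and DNA. Several kinases phosphorylate it and the calcium-activated phosphatase calcineurin removes the phosphates. It is known for binding an AU-rich stretch in the 3′ untranslated region (UTR) of TNF mRNA, which it stabilises in macrophages. The gene groups below cover these themes and, beyond them, sterol and glucose metabolism, the p53 response, the actin cytoskeleton, pluripotency factors and protein folding.

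The 6 libraries held 7317419 to 18813356 counts assigned to genes. Levels are given as CPM, the counts scaled to a common library size after TMM normalization, always in the order of replicates 1, 2 and 3. A log2 change is the knockdown minus the control, is followed by its standard error (SE), and is called where the p of edgeR's quasi-likelihood test, adjusted over all 15642 genes, is under 0.05. Along the leading principal component, with 40.1% of the variance, the 3 knockdown libraries lay on one side and the 3 controls on the other. The defining markers of the labelled state were present: the summed level of 8 markers of primed cells was 4960 to 5050 CPM in the knockdown and 4810 to 4920 CPM in the control libraries, and that of 7 core pluripotency markers 7760 to 7930 CPM and 7850 to 7990 CPM. Markers of naive cells summed to at most 35.2 CPM, with KLF17 at 0 counts, those of neural ectoderm to at most 4.85 CPM, of mesendoderm to at most 8.84 CPM and of definitive endoderm to at most 4.63 CPM. Changes also moved with base composition. Across genes, the log2 change fell with the GC content of the gene's longest transcript (Spearman's rho = −0.328, a description across genes that share 6 libraries, and genes are not independent replicates). Genes were ordered by GC content into 5 bins. In the bin with the lowest content, 17.9% were called higher and 4.58% lower. In the bin with the highest, 1.86% were called higher and 19.9% lower. Each count of a gene group below is followed in parentheses by the count after removal of GC and length trends from every library. The background for that second count is 8.71% higher and 8.11% lower over all genes. The part of library preparation in this trend was not tested.

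**Figure D1:**
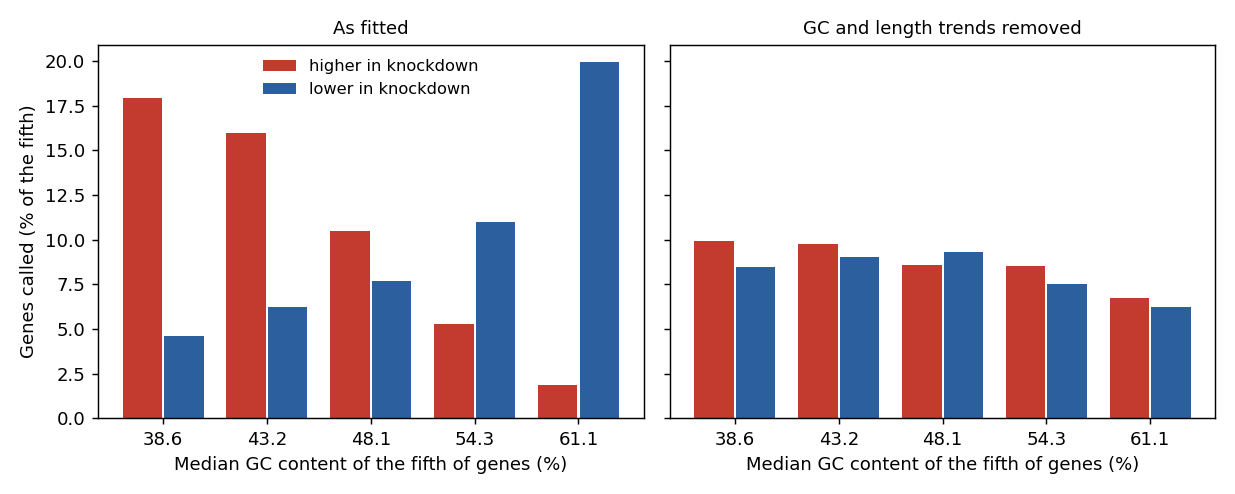
Share of tested genes called higher (red) or lower (blue) in CARHSP1 knockdown cells, in % of each of 5 bins of genes ordered by GC content (x axis, median GC content of the bin in %), as fitted (left) and after removal of GC and length trends (right). Before the removal the share called lower rises from 4.58% to 19.9% across the bins, and after it the shares lie between 6.23% and 9.90%.

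CARHSP1 lies on chromosome 16 (GRCh38, chr16:8852942-8869012, minus strand). Its level was 21.3, 18.5 and 18.8 CPM in the knockdown libraries against 155, 151 and 151 CPM in the controls. All 3 knockdown libraries were far below all controls (log2 change −2.97 ± 0.07, adjusted p = 8.36e-29), so the labels hold for the targeted gene. Of the genes that start within 500 kb of CARHSP1, 7 others could be tested, and among these USP7, which encodes a deubiquitinase that acts on MDM2 and p53, was the gene called (log2 change 0.15 ± 0.04, adjusted p = 0.00816). METTL22, ABAT, PMM2, TMEM186, HAPSTR1 and a gene without a symbol had log2 changes between −0.13 and 0.10 and were not called. TNF, whose mRNA CARHSP1 is known to bind, had 0 counts in all 6 libraries, so nothing can be said of it here.

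Of the 15642 genes tested, 3152 (20.2%) were called, 1608 (10.3%) higher and 1544 (9.87%) lower in the knockdown. The genes that fell did so by more: the median fold was 1.32 among those called lower and 1.215 among those called higher. In numbers, 463 fell and 176 rose by at least 1.5-fold, and 40 fell and 16 rose by at least 3-fold. In 34.2% of all tested genes the libraries of the groups did not overlap. The count depended on single libraries. It was 2066 without knockdown replicate 2 and 2064 without control replicate 1, and the removal of GC and length trends left 2619 called genes (16.8%), 2066 of them in common with the 3152. Among genes with a mean of at least 5 CPM over the 6 libraries and groups that did not overlap, the steepest increases were those of ANXA1, TAGLN, MYL9, GCNT4, ACTC1 and HTR7, and the steepest decreases after CARHSP1 itself those of SLC16A3, PFKFB4, NFKBIZ, ABHD12B and BNIP3. HTR7, a serotonin receptor, had 34.6, 38 and 34.4 CPM in the knockdown and 11.4, 16.5 and 14.7 CPM in the control libraries (log2 change 1.35 ± 0.12, adjusted p = 2.04e-11). GCNT4, a glycosyltransferase that branches mucin-type sugar chains, had 26.8, 28.4 and 32.1 CPM and 11.3, 10.6 and 10.3 CPM (log2 change 1.44 ± 0.12, adjusted p = 1.19e-11). Both were higher in every knockdown library than in any control. ABHD12B, a serine hydrolase, had 12.9, 13.9 and 16.5 CPM against 49.2, 49.5 and 40.6 CPM (log2 change −1.67 ± 0.11, adjusted p = 4.87e-15). CHGA, a granin of neuroendocrine secretory granules, had 8.61, 9.12 and 5.78 CPM against 20.8, 21.8 and 21.1 CPM (log2 change −1.46 ± 0.15, adjusted p = 2.54e-09). GRPR, the receptor for gastrin-releasing peptide, had 7.12, 9.03 and 8.78 CPM against 23, 20.8 and 19.9 CPM (log2 change −1.35 ± 0.14, adjusted p = 2.61e-09). In these 3 genes the lowest control library was more than 2-fold above the highest knockdown library.

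**Figure D2:**
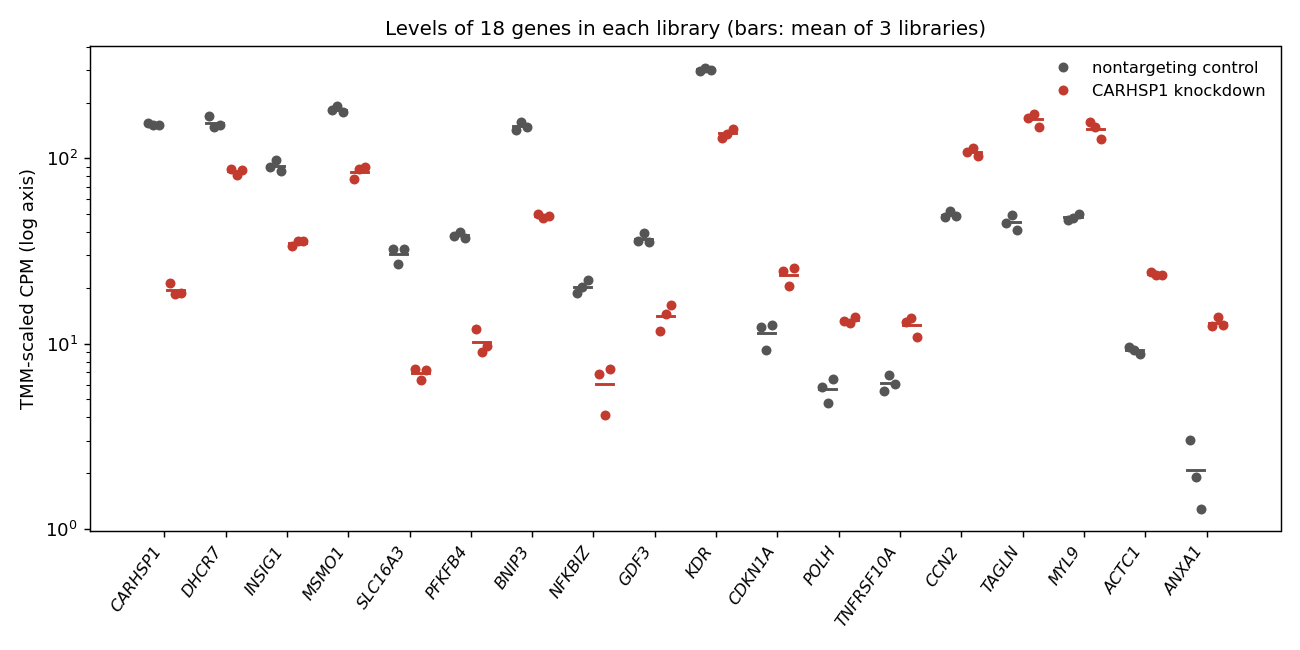
Level of 18 genes in each of the 6 libraries, in TMM-scaled CPM on a log axis (grey, nontargeting control; red, CARHSP1 knockdown; bars, mean of 3 libraries). In each of these genes the 3 libraries of a group lie all above or all below the 3 of the other, as for CARHSP1 itself at 21.3, 18.5 and 18.8 CPM against 155, 151 and 151 CPM.

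Cholesterol is made from acetyl-CoA by a chain of enzymes whose genes are switched on together by the transcription factor SREBF2 when the sterol content of the endoplasmic reticulum drops. INSIG1 holds the SREBF proteins in the membrane through SCAP. Of 20 genes of sterol synthesis, 11 fell and 2 rose (11 and 2 with GC and length trends removed), with a median log2 change of −0.45 against −0.00 over all genes tested. The number that rose was 1 without knockdown replicate 2. Of 13 genes of sterol sensing and uptake, 10 fell and 0 rose (8 and 0), with a median of −0.54.

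The promoters of sterol genes are shown first, because 11 of the synthesis genes fell. RefSeq's stretch from 250 bases before to 50 bases after the start was in hand for 11360 of the tested genes, 15 of the 20 synthesis genes and 10 of the 13 sensing and uptake genes. A sterol regulatory element core, searched as TCACNCCAC on both strands, was in 1.11% of all these promoters, in 0 of the 15 and in 1 of the 10, that of SREBF2 itself. The CCAAT box, searched as CCAAT on both strands, was in 36.3% of all promoters, in 12 of the 15 synthesis promoters, in 6 of 7 from genes that fell and in 5 of 7 from genes that were not called. A match is a description of letters and no evidence of binding. The search took these exact letters only, so a promoter without a match is not shown to lack the element. The stretches below are from GRCh38.p14, 5′ to 3′ on the gene's own strand, with the match in capitals (CCAAT, or ATTGG where the box is on the other strand), at chr22:41832952-41833000 (plus strand) for SREBF2, chr4:165327464-165327659 (plus) for MSMO1, chr5:43313488-43313587 (minus) for HMGCS1 and chr11:71448417-71448507 (minus) for DHCR7.
SREBF2: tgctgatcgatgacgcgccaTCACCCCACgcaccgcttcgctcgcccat
MSMO1: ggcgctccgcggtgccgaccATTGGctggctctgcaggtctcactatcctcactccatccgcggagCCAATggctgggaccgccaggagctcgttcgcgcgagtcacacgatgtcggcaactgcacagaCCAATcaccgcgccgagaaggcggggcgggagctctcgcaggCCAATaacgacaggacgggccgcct
HMGCS1: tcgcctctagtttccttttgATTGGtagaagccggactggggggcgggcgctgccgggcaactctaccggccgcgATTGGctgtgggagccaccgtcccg
DHCR7: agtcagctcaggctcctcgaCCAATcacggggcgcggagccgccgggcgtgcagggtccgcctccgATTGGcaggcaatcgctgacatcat
MSMO1 carried 4 CCAAT boxes within these 196 bases, and HMGCS1 and DHCR7 carried 2 each.

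Genes that fell belong to early and to late steps of the pathway. HMGCS1, which makes HMG-CoA, had 352, 348 and 353 CPM in the knockdown and 588, 597 and 582 CPM in the control libraries (log2 change −0.75 ± 0.04, adjusted p = 6.21e-17). Both groups were tight and lay well apart. IDI1, which isomerises the isoprenoid unit, fell by 0.84 on the log2 scale, FDFT1 (squalene synthase) by 0.53, and MVK (mevalonate kinase), from 16.4, 15.1 and 17.9 CPM to 9.08, 8.12 and 7.28 CPM, by 1.03. Among the late steps, MSMO1, the C4 methyl sterol oxidase, had 77.3, 87.1 and 89.4 CPM against 182, 191 and 178 CPM (log2 change −1.11 ± 0.06, adjusted p = 9.24e-18), with every control library above every knockdown library. DHCR7, the last reductase of the pathway, had 87.2, 81.5 and 87 CPM against 168, 148 and 150.5 CPM (log2 change −0.87 ± 0.06, adjusted p = 3.02e-14). SC5D fell by 0.53 and HSD17B7 by 0.70. The pathway did not move as a block: ACAT2, the cytosolic thiolase at its entry, rose from 149, 159.9 and 162 CPM to 223, 227 and 238 CPM (log2 change 0.55 ± 0.05, adjusted p = 1.36e-10), and LSS, the cyclase that closes the sterol rings, was not called at 181, 166 and 168 CPM in the knockdown and 188, 192 and 186 CPM in the control libraries (log2 change −0.13 ± 0.05, adjusted p = 0.0629), but was called without knockdown replicate 1. FDPS, the other member that rose, has 8 pseudogenes named after it, so its count is uncertain. 

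Among the genes that sense and take up sterols, INSIG1 had 33.6, 36 and 35.6 CPM in the knockdown against 89.9, 97.5 and 85.9 CPM in the controls (log2 change −1.37 ± 0.08, adjusted p = 2.07e-17). No knockdown library came near a control. The transcription factors fell less than INSIG1: SREBF2, which drives the sterol genes, by 0.54 from 421, 402 and 395 CPM to 284, 273 and 282 CPM, and SREBF1, which drives lipid synthesis more broadly, by 0.68 from 69, 66.9 and 73.3 CPM to 46, 43.2 and 41.6 CPM. STARD4, a sterol carrier, fell by 0.60. NPC2, SCARB1 and MYLIP were not called, with log2 changes of 0.02, −0.07 and −0.07. Of 6 genes of sterol efflux, which answer to LXR and move against the SREBF2 targets when sterols are low, 0 were called (1 rose and 0 fell with GC and length trends removed), but 2 fell, APOE and NR1H2, when knockdown replicate 1 was left out. ABCA1, the main efflux pump, had 18.6, 15.9 and 21.4 CPM in the knockdown and 22.1, 18.1 and 18.9 CPM in the control libraries, and ABCG1, which passes cholesterol to lipoproteins, 9.94, 9.58 and 7.39 CPM in the knockdown and 6.89, 7.62 and 5.95 CPM in the control libraries, so the groups overlapped in both. In edgeR's test 3 of the 6 had an unadjusted p under 0.05, and DESeq2 called 0. Of 12 genes of fatty acid synthesis, 5 fell and 2 rose (6 and 2 with GC and length trends removed). SCD, the desaturase that makes oleate, went from 2133, 2173 and 2137 CPM to 1718, 1764 and 1749 CPM (log2 change −0.30 ± 0.04, adjusted p = 5.73e-08). FASN, the fatty acid synthase, had 848, 618 and 627 CPM against 1033, 968 and 1001 CPM (log2 change −0.52 ± 0.06, adjusted p = 6.29e-08), where knockdown replicate 1 lay above the other two. That library also stood apart from its group in COL6A1 and CDT1, given below. ACSS2, which makes acetyl-CoA from acetate, rose from 65.2, 65.3 and 68.4 CPM to 91, 92.2 and 97.5 CPM (log2 change 0.50 ± 0.07, adjusted p = 3.8e-07), and ACLY, which makes it from citrate, was not called (log2 change −0.06 ± 0.04, adjusted p = 0.303).

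**Figure D3:**
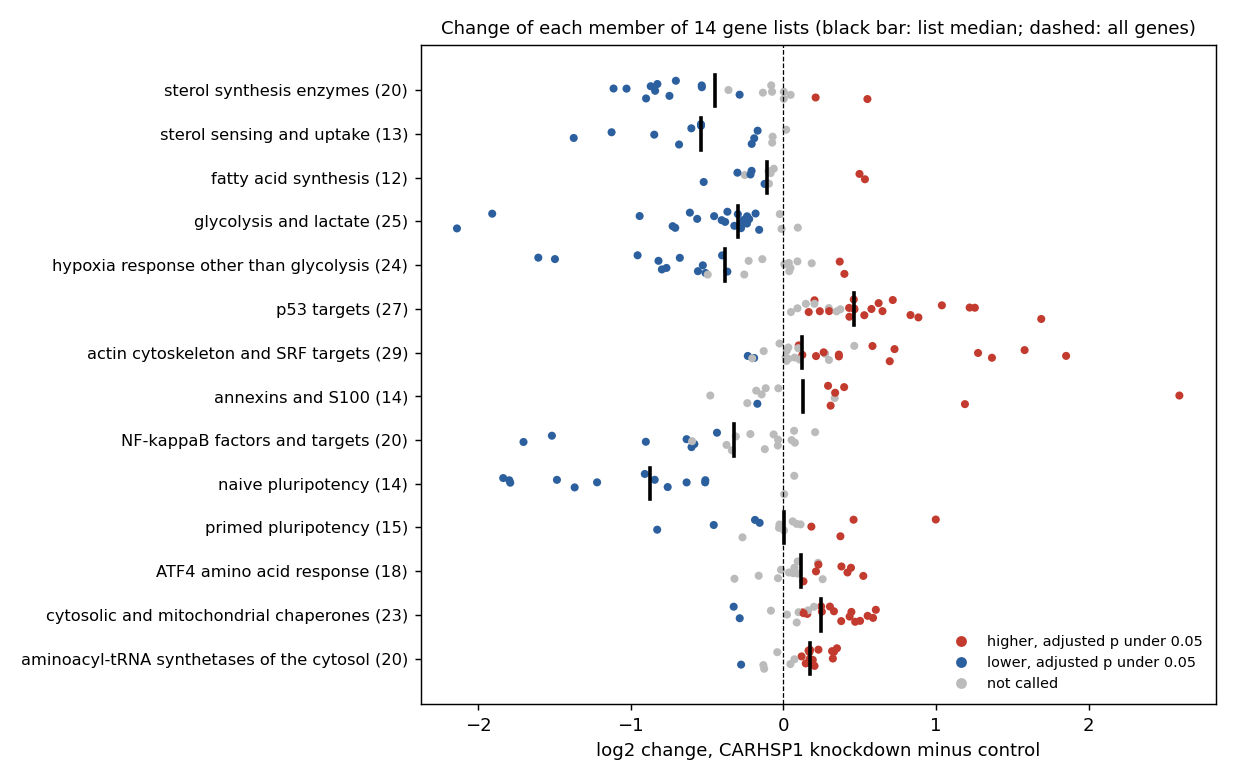
Log2 change (x axis, CARHSP1 knockdown minus control) of each tested member of 14 gene lists, with the number of tested members in parentheses (red, called higher; blue, called lower; grey, not called; black bar, median of the list; dashed line, median of all tested genes). CARHSP1 itself is not drawn, and 2 of the lists, chaperones and tRNA synthetases, were added after values had been seen. The medians run from −0.87 for naive pluripotency genes to 0.46 for p53 targets.

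Glycolysis turns glucose into pyruvate and lactate, and primed cells rely on it. When oxygen is low, the factor HIF1 raises many of its genes through promoters that carry the core ACGTG. Of 25 genes of glycolysis and lactate handling, 22 fell and 0 rose (21 and 0 with GC and length trends removed), with a median log2 change of −0.30. Of 24 other tested genes of the hypoxia response, 12 fell and 2 rose (13 and 2; 1 rose in a fit of all 6 H1 groups), with a median of −0.38. The core ACGTG, searched on both strands, was in 26.2% of all promoters, in 9 of 23 from the glycolysis list and in 9 of 19 from the hypoxia list, 6 of these 9 among the 9 promoters of genes that fell. Stretches of 2 promoters are shown because these genes fell steeply and each carries the core on both strands, in BNIP3 overlapping as CACGTG. They lie at chr10:131982032-131982077 (minus strand) for BNIP3 and chrX:78104026-78104089 (plus) for PGK1, with the core in capitals (ACGTG, or CACGT on the other strand).
BNIP3: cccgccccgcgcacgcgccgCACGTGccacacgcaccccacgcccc
PGK1: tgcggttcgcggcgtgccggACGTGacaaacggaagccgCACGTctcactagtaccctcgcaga

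SLC2A1 (GLUT1), through which glucose enters, had 156, 154 and 152 CPM in the knockdown libraries and 302, 291 and 293 CPM in the controls (log2 change −0.94 ± 0.05, adjusted p = 2.58e-18). A gene model without a symbol shares exons with it on the same strand. PFKFB4, which sets the level of the activator of phosphofructokinase, had 12, 9.03 and 9.69 CPM against 38.1, 40.3 and 37 CPM (log2 change −1.91 ± 0.12, adjusted p = 7.62e-16). PGK1, which yields ATP, had 488, 532 and 515 CPM against 849, 836 and 823 CPM (log2 change −0.71 ± 0.04, adjusted p = 2.44e-16). LDHA, which makes lactate, had 641, 659.6 and 671 CPM against 1014, 969.6 and 1030 CPM (log2 change −0.61 ± 0.04, adjusted p = 5.78e-15). SLC16A3 (MCT4), which exports lactate, had 7.28, 6.39 and 7.17 CPM against 32.3, 26.8 and 32.6 CPM (log2 change −2.14 ± 0.13, adjusted p = 8.07e-16). This was the largest decrease of the list, and every control library had more than 3-fold the level of any knockdown library. PKM, pyruvate kinase, fell by 0.26, ENO1, enolase, by 0.24 and GPI, the isomerase of glucose phosphate, by 0.27. In this list GAPDH, PGAM1, LDHA, PKM, ENO1, TPI1, LDHB, SLC2A3, ALDOA, HK2, PGK1 and SLC16A1 have pseudogenes named after them, and PGK1 and PFKFB4 share exonic sequence with ATP7A and UCN2 on the same strand. GPI, ALDOA, LDHB, PFKP and SLC2A1 share it with gene models without a symbol, and SLC16A3 with MIR6787, so the counts of all these genes are uncertain. Of the other hypoxia genes, BNIP3, a mitophagy receptor, had 50, 47.4 and 49.1 CPM against 143, 157 and 147 CPM (log2 change −1.61 ± 0.06, adjusted p = 1.15e-21), although 39 pseudogenes named after it make its count uncertain. KDM3A, a histone demethylase, went from 71.8, 83.3 and 72.8 CPM to 40, 42.5 and 45.7 CPM (log2 change −0.82 ± 0.08, adjusted p = 2.19e-10), and FAM162A, a mitochondrial protein, from 62.8, 65.8 and 62.2 CPM to 37.3, 38.3 and 36.6 CPM (log2 change −0.77 ± 0.08, adjusted p = 1.17e-09). EPAS1, which encodes HIF2A, fell by 0.95 on the log2 scale. Members that rose were STC2 (61.8, 58 and 57 CPM against 43.4, 49.4 and 44.7 CPM) and ADM (39.2, 37.8 and 35.5 CPM against 29.8, 23.9 and 30.5 CPM), so the list did not move in a single direction. ADM was not called in a fit of all 6 H1 groups.

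MIR210HG, the host transcript of miR-210, a microRNA known for its induction by HIF, had 1.96, 0.821 and 1.12 CPM in the knockdown and 4.24, 3.4 and 4.58 CPM in the control libraries (log2 change −1.65 ± 0.34, adjusted p = 0.000475). NDUFA4L2, a mitochondrial protein also known as a HIF target, had 0.313, 0.0912 and 0.161 CPM against 2.27, 3.67 and 3.3 CPM (log2 change −3.93 ± 0.52, adjusted p = 3.61e-07). Both are low and were picked after their values were seen. The mature microRNA was not measured by these libraries of polyadenylated RNA. Its sequence is shown because its seed, bases 2 to 8 in capitals, is the part that pairs with targets (RefSeq, GRCh38.p14, chr11:568112-568133, minus strand).
hsa-miR-210-3p: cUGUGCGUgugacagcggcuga

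The factor p53 answers DNA damage and other stress by switching on genes for cell cycle arrest, repair and death. Of 27 p53 targets, 20 rose and 0 fell (21 and 0 with GC and length trends removed), and the median log2 change was 0.46. All 27 had a change above 0. Among genes of arrest, CDKN1A (p21) had 24.6, 20.4 and 25.7 CPM in the knockdown libraries and 12.3, 9.25 and 12.5 CPM in the controls (log2 change 1.04 ± 0.13, adjusted p = 2.4e-07). BTG2, an antiproliferative cofactor of deadenylation, had 11.2, 10.5 and 10.6 CPM against 4.17, 6.39 and 3.39 CPM (log2 change 1.26 ± 0.20, adjusted p = 1.69e-05). Among repair genes, POLH, a polymerase that copies past lesions, had 13.2, 13 and 13.9 CPM against 5.83, 4.76 and 6.41 CPM (log2 change 1.22 ± 0.17, adjusted p = 1.21e-06). RRM2B, a subunit of ribonucleotide reductase, had 139, 140.3 and 144 CPM against 98.5, 104 and 91.8 CPM (log2 change 0.53 ± 0.06, adjusted p = 8.94e-09). ZMAT3, an RNA-binding splicing regulator, went from 19.6, 22 and 17.8 CPM to 31.2, 37.1 and 36.6 CPM (log2 change 0.83 ± 0.11, adjusted p = 2.72e-07). SESN1, a sestrin that restrains mTORC1, went from 23, 22.3 and 25.6 CPM to 38.3, 33.6 and 37.6 CPM (log2 change 0.62 ± 0.10, adjusted p = 1.31e-05). No knockdown library of these 6 genes overlapped a control. BAX, which opens the mitochondrial membrane in apoptosis, rose by 0.43 and MDM2, the ligase that limits p53, by 0.46. GDF15, a secreted stress cytokine, was low at 3.37, 1.55 and 2.19 CPM in the knockdown and 0.833, 0.816 and 0.549 CPM in the control libraries and rose by 1.69.

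Of 7 tested genes of p53 regulators, 2 rose, USP7 and CHEK1, and 0 fell (1 and 0 with GC and length trends removed). CHEK1, at a log2 change of 0.19, lost its call in 7 of 13 alternative settings. It was not called after that removal, with or without a replicate block, by DESeq2 or in a fit of all 6 H1 groups. Nor was it called without knockdown replicate 2, knockdown replicate 3 or control replicate 3. The TRAIL receptors, a small family of death and decoy receptors for the ligand TRAIL, were added as a list after their values were seen. All 4 rose (4 with GC and length trends removed), and in each gene every knockdown library lay above every control. TNFRSF10A, a death receptor, had 13.2, 13.8 and 10.9 CPM against 5.53, 6.8 and 6.04 CPM (log2 change 1.05 ± 0.18, adjusted p = 2.81e-05). TNFRSF10B, the other death receptor, had 97.2, 94.4 and 91.3 CPM against 63.3, 61.2 and 64.5 CPM (log2 change 0.58 ± 0.07, adjusted p = 1.86e-08). The decoy receptors TNFRSF10C and TNFRSF10D had 3.21, 4.01 and 2.25 CPM against 0.758, 1.22 and 1.28 CPM and 14.4, 16.9 and 16.8 CPM against 10.5, 9.12 and 12.1 CPM, with log2 changes of 1.54 and 0.59. TNFRSF10C shares exons with 2 gene models on the same strand, so its count is uncertain. The host transcript of miR-34a, a microRNA known as a p53 target, was also higher: MIR34AHG had 5.17, 5.02 and 4.66 CPM against 2.65, 3.54 and 2.84 CPM (log2 change 0.74 ± 0.26, adjusted p = 0.0399). It too was picked after its values were seen, and it was not called when any 1 library other than control replicate 2 was left out, or by DESeq2. In all, it lost its call in 8 of 13 alternative settings. The mature form, not measured here, is shown with its seed in capitals (chr1:9151735-9151756, minus strand).
hsa-miR-34a-5p: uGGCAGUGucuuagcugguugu

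Actin filaments and their tropomyosin and myosin partners are under the control of the factor SRF, which binds the CArG box. Its cofactor MRTF is held by monomeric actin and set free when actin polymerises. Of 29 genes of the actin cytoskeleton and SRF targets, 13 rose and 2 fell (18 and 1 with GC and length trends removed), with a median log2 change of 0.12. The number that fell was 2 when knockdown replicate 3 was left out, 1 for knockdown replicate 1, 1 for control replicate 3 and 0 for any other library, and 0 with DESeq2. The steepest rises were those of contractile proteins. TAGLN (transgelin) had 165, 174 and 148 CPM in the knockdown libraries against 44.8, 49.7 and 40.8 CPM in the controls (log2 change 1.85 ± 0.07, adjusted p = 5.23e-22). MYL9, a myosin light chain, had 158, 147 and 128 CPM against 46.8, 47.5 and 49.8 CPM (log2 change 1.58 ± 0.07, adjusted p = 5.3e-20). ACTC1, cardiac actin, had 24.4, 23.4 and 23.6 CPM against 9.55, 9.25 and 8.79 CPM (log2 change 1.37 ± 0.13, adjusted p = 2.26e-10). The lowest knockdown library had more than 2-fold the level of the highest control in each. CALD1, caldesmon, went from 343, 368 and 355 CPM to 587, 589 and 589.7 CPM (log2 change 0.73 ± 0.04, adjusted p = 2.44e-16). TPM1, a tropomyosin, went from 227, 229.9 and 223 CPM to 364, 378 and 360.2 CPM (log2 change 0.70 ± 0.05, adjusted p = 5.18e-15). TPM4 rose by 0.36 and VCL, vinculin, by 0.21. ACTA1, skeletal actin, had 29.4, 26.9 and 22.7 CPM against 18.7, 18.8 and 15 CPM (log2 change 0.58 ± 0.12, adjusted p = 0.00052). Cytoplasmic actin ACTB had a log2 change of 0.10 and lost its call when knockdown replicate 2 or 3, or control replicate 2 or 3, was left out. In all, ACTB lost its call in 6 of 13 alternative settings. MRTFA, the cofactor, had 39.3, 37.2 and 41 CPM against 49.1, 44.8 and 44.2 CPM (log2 change −0.23 ± 0.08, adjusted p = 0.0467), and was not called when any 1 library other than knockdown replicate 3 was left out, nor with GC and length trends removed. In all, MRTFA lost its call in 10 of 13 alternative settings.

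A CArG box was found in 1.09% of all promoters, in 9 of 26 from this list, in 5 of 10 from genes that rose and in 4 of 14 from genes that were not called. Stretches are shown for ACTC1 (chr15:34795629-34795678, minus strand) and TPM4 (chr19:16067345-16067394, plus), as 2 genes that rose by different amounts. The box, in capitals, has the same letters in both.
ACTC1: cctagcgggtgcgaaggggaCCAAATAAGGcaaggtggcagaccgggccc
TPM4: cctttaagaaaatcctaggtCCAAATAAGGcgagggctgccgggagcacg

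YAP and TEAD are factors that read cell shape and density. Of 16 tested genes of a list that holds these factors and relatives as well as their targets, 4 rose and 2 fell (4 and 1). The number that fell was 0 without knockdown replicate 1, 0 without control replicate 3, and 1 when any other library was left out or with DESeq2. CCN2 (CTGF), a secreted matricellular protein, had 108, 114 and 103 CPM against 48.2, 52 and 49.1 CPM (log2 change 1.13 ± 0.07, adjusted p = 5.48e-16), whereas CCN1, its relative, went from 95.4, 105 and 98.6 CPM to 124, 121 and 116 CPM (log2 change 0.27 ± 0.06, adjusted p = 0.00103). YAP1, AJUBA, LATS2 and WWTR1 were not called, with log2 changes between −0.11 and 0.12, and F3, the initiator of coagulation, fell from 11.3, 12.1 and 12.2 CPM to 5.32, 9.67 and 8.46 CPM (log2 change −0.60 ± 0.18, adjusted p = 0.0155), a call lost without knockdown replicate 1 or control replicate 3. Of 14 annexins and S100 proteins, which bind membranes or partners in a calcium-dependent way, 6 rose and 1 fell (5 and 0). The number that fell was 2 without knockdown replicate 1, 1 without knockdown replicate 3 and 0 when any other library was left out or with DESeq2. ANXA1, known for limiting inflammation, had 12.4, 13.9 and 12.6 CPM against 3.03, 1.91 and 1.28 CPM (log2 change 2.60 ± 0.23, adjusted p = 2.37e-11), the largest rise of all named genes. ANXA3 had 48.5, 48.1 and 49.6 CPM against 19.6, 21.4 and 23.4 CPM (log2 change 1.19 ± 0.10, adjusted p = 1.64e-12), and ANXA2, with its partner S100A10, rose by 0.40 and 0.31. S100A6 and S100A4 were not called (−0.03 and −0.48), and S100A4 was called without knockdown replicate 1.

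NF-kappaB factors drive inflammatory genes and their own inhibitors. Of 20 tested factors and targets, 7 fell and 0 rose (7 and 0 with GC and length trends removed), with a median log2 change of −0.32. NFKBIZ, an atypical nuclear inhibitor, had 6.89, 4.11 and 7.28 CPM in the knockdown libraries and 18.7, 20.1 and 22.1 CPM in the controls (log2 change −1.70 ± 0.17, adjusted p = 3.08e-10). TNFAIP3 (A20), a ubiquitin-editing enzyme, had 3.05, 2.74 and 3 CPM against 7.65, 7.89 and 9.7 CPM (log2 change −1.52 ± 0.23, adjusted p = 3.61e-06). Its partner TNIP1 had 41.4, 45.4 and 43.1 CPM against 62.8, 67.9 and 64.3 CPM (log2 change −0.58 ± 0.08, adjusted p = 3.61e-07). All knockdown libraries lay below all controls in these 3. Of the subunits, NFKB2 fell from 24.2, 26.9 and 25.2 CPM to 15.9, 17 and 16.2 CPM (log2 change −0.63 ± 0.11, adjusted p = 8.86e-05) and RELB from 7.65, 5.31 and 8.06 CPM to 4.23, 4.11 and 3.21 CPM (log2 change −0.90 ± 0.23, adjusted p = 0.00415), while RELA, at 23.1, 20.4 and 18.8 CPM in the knockdown and 27.4, 18.4 and 20.8 CPM in the control libraries, and REL were not called (−0.12 and −0.34). NFKBIA, the classical inhibitor, fell by 0.43.

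AU-rich elements in 3′ UTRs mark short-lived mRNAs, and proteins bind them to hasten or delay decay. Of 13 proteins that bind such elements, 2 rose and 2 fell (2 and 3). The number that rose was 4 without knockdown replicate 1, and the number that fell was 1 without control replicate 1. HNRNPD (AUF1) rose from 645, 685 and 719 CPM to 861, 902 and 843 CPM (log2 change 0.35 ± 0.04, adjusted p = 1.15e-07), and the decay factor ZFP36L2 fell from 50.8, 53.6 and 54.4 CPM to 36.8, 32.8 and 36.9 CPM (log2 change −0.57 ± 0.08, adjusted p = 3.01e-06), while its relative ZFP36 was at 5.25, 7.21 and 5.25 CPM in the knockdown and 10.6, 9.79 and 8.61 CPM in the control libraries (log2 change −0.73 ± 0.19, adjusted p = 0.00574), a call lost without control replicate 1. ELAVL1 (HuR), which stabilises such mRNAs, was not called (log2 change 0.02 ± 0.05, adjusted p = 0.83). A heptamer of AU-rich elements, TATTTAT in DNA letters, was counted in the 3′ UTR of each gene's longest protein-coding transcript (GENCODE 29). Of 8537 genes without it, 10.6% were called higher and 11.5% lower, and of 943 genes with 3 or more copies, 11.4% and 8.27%. The order reversed once GC and length trends were removed: the share called lower was then 7.84% without a copy, 9.03% with 1, 11.5% with 2 and 10.8% with 3 or more. Genes with more copies also had longer 3′ UTRs, with a median of 881 bases without a copy and 4610 bases with 3 or more, and lower GC content. Within short 3′ UTRs, the share called lower after the removal was 7.47% without a copy and 7.10% with 1 or more. It was 7.38% and 11.1% in those of middle length, and 9.56% and 9.94% in long ones, so the groups differed by over 1 percentage point in the middle class alone. Sites are shown for genes named above that fell, TNFAIP3 (chr6:137882299-137882325 and chr6:137883150-137883176) and INSIG1 (chr7:155308691-155308717 and chr7:155309330-155309356), and for BTG2 (chr1:203307529-203307555), which rose. All lie on the plus strand of GRCh38, with 10 bases on either side and the heptamer in capitals.
TNFAIP3 site 1: taattcacttTATTTATtttattacaa
TNFAIP3 site 2: aaaaagtaatTATTTATacttattata
INSIG1 site 1: ataggaataaTATTTATccaaaagatt
INSIG1 site 2: atctcttaaaTATTTATtttttttaac
BTG2 site 1: aatgaagagcTATTTATatatattatt

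Of the other 7 genes with a cold shock domain, 3 rose and 0 fell (1 and 0 with GC and length trends removed). Without knockdown replicate 3, YBX2 fell as well. YBX1, a general mRNA-binding protein, went from 1145, 1155 and 1109 CPM to 1283, 1322 and 1218 CPM (log2 change 0.17 ± 0.04, adjusted p = 0.00235), and 10 pseudogenes are named after it. YBX3, a relative of YBX1, rose by 0.14, a call lost after the removal and when knockdown replicate 1, knockdown replicate 3, control replicate 1 or control replicate 2 was left out. In all, YBX3 lost its call in 8 of 13 alternative settings. LIN28A and LIN28B, which block let-7 maturation, were not called, with 1978, 2100 and 1974 CPM in the knockdown and 1990, 1966 and 1953 CPM in the control libraries for LIN28A (log2 change 0.03 ± 0.04, adjusted p = 0.57). CSDC2, the closest relative of CARHSP1, was low at 0.783, 0.73 and 0.482 CPM in the knockdown and 1.36, 1.09 and 1.56 CPM in the control libraries and not called. Of 8 genes of kinases and of calcineurin that act on CARHSP1, 1 fell and 0 rose (2 and 1): PPP3CA, a catalytic subunit of calcineurin, went from 93, 101 and 98.9 CPM to 78, 87.3 and 85.1 CPM (log2 change −0.22 ± 0.06, adjusted p = 0.0118), a call lost without control replicate 2 or 3. Of 32 genes of the RNA decay machinery, 6 rose and 2 fell, but 3 rose and 4 fell once GC and length trends were removed, and the number that rose was 1 without knockdown replicate 2, 2 without knockdown replicate 3, 2 without control replicate 1, 3 without control replicate 2 and 2 without control replicate 3. The number that fell was 1 when control replicate 1 or control replicate 3 was left out.

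Naive and primed states differ in a set of transcription factors and in their dependence on FGF and Nodal signals. Of 14 tested naive genes, 12 fell and 0 rose (10 and 0 with GC and length trends removed), with a median log2 change of −0.87. Of the 22 genes in the list, 8 did not pass the filter on low counts, so the count speaks only for those expressed. PRDM14, a repressor of differentiation genes, had 82, 83.7 and 89.2 CPM in the knockdown libraries and 122, 122 and 119.7 CPM in the controls (log2 change −0.51 ± 0.06, adjusted p = 3.61e-08). TFAP2C, a naive enhancer factor, had 20.2, 20.6 and 21.1 CPM against 29.8, 38.2 and 37.5 CPM (log2 change −0.76 ± 0.11, adjusted p = 1.55e-06). GDF3, a Nodal-like ligand, had 11.7, 14.5 and 16.2 CPM against 35.7, 39.7 and 35.3 CPM (log2 change −1.37 ± 0.12, adjusted p = 7.02e-12). The groups did not overlap in these genes. KLF4, DPPA3, TBX3 and NLRP7 fell from at most 8.98 CPM in any control library, by 1.22, 1.83, 1.79 and 1.80. TFCP2L1 and ZFP42 were not called (0.01 and 0.07). Genes defined from H9 cells, without use of the H1 libraries, gave a wider view: of 189 tested genes (of 222) that were at least 4-fold higher in naive than in primed H9 cells, 59 fell and 10 rose (58 and 11), with a median of −0.26, and of 240 tested genes (of 245) at least 4-fold higher in primed H9 cells, 34 fell and 37 rose (37 and 39), with a median of −0.05.

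Core factors did not move together. Of 13 core genes, 3 fell and 2 rose (3 and 2), and 5 fell without knockdown replicate 1. The number that rose was 1 when any library other than knockdown replicate 3 was left out. SOX2 had 322, 323 and 309 CPM against 397, 403 and 414 CPM (log2 change −0.35 ± 0.04, adjusted p = 1.84e-07) and SALL4 fell by 0.24, while NANOG was not called at 133, 148 and 138 CPM in the knockdown and 135, 134 and 137 CPM in the control libraries (log2 change 0.05 ± 0.06, adjusted p = 0.61). POU5F1 fell by 0.20, with 6 pseudogenes named after it. Of 15 primed genes, 4 rose and 4 fell (5 and 4). DUSP6, a phosphatase that feeds back on ERK, had 96.4, 95.7 and 113 CPM against 54.2, 46.3 and 51.8 CPM (log2 change 1.00 ± 0.08, adjusted p = 2.58e-13). CRABP1, which binds retinoic acid, had 137, 134 and 153 CPM against 258, 248 and 247 CPM (log2 change −0.83 ± 0.05, adjusted p = 3.02e-15). In the Nodal pathway 3 of 17 genes rose and 3 fell (4 and 2). Its feedback inhibitors LEFTY1 and CER1 rose, LEFTY1 from 9.32, 9.39 and 9.15 CPM to 14.6, 13.4 and 13.5 CPM (log2 change 0.57 ± 0.15, adjusted p = 0.00535) and CER1 from 0.682, 0.408 and 0.458 CPM to 2.35, 2.19 and 2.09 CPM (log2 change 2.02 ± 0.45, adjusted p = 0.00108), and NODAL itself was not called at 26.5, 26.3 and 23.9 CPM in the knockdown and 19.3, 23.3 and 22.1 CPM in the control libraries (log2 change 0.25 ± 0.11, adjusted p = 0.105). Of 24 tested genes of ERK feedback and the immediate early response, 4 rose and 5 fell (4 and 7), and 3 fell without control replicate 1. FOSL1 rose from 5, 5.17 and 3.48 CPM to 10.7, 8.94 and 9.21 CPM, by 1.09, JUN fell from 23.4, 23.7 and 25.8 CPM to 15.9, 12.7 and 15.4 CPM, by 0.72, and EGR1 fell by 0.36. FOSL1 and JUN, both of the AP-1 family, thus moved in opposite directions. In a fit of all 6 H1 groups, 2 of the 24 rose.

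KDR, the receptor for VEGF, had 129, 136 and 145 CPM in the knockdown libraries and 298, 308 and 301 CPM in the controls (log2 change −1.15 ± 0.05, adjusted p = 4.25e-20). NRP1, a co-receptor, rose from 0.303, 0.952 and 0.732 CPM to 2.5, 2.19 and 2.09 CPM (log2 change 1.85 ± 0.45, adjusted p = 0.00277), FLT1, a decoy receptor, rose by 0.21, and the ligand VEGFA fell from 43.2, 42.7 and 40.9 CPM to 34, 28.6 and 35.2 CPM (log2 change −0.37 ± 0.09, adjusted p = 0.00372). In all, 3 of 9 genes of VEGF signalling rose and 3 fell (3 and 2). The summed level of 6 endothelial markers was 159 to 174 CPM in the knockdown and 319 to 325 CPM in the control libraries, of which KDR was the main part, while PECAM1 had 1 count and CDH5 9 counts in all 6 libraries together. TEK, an angiopoietin receptor, went the other way, with 28, 27.7 and 26.6 CPM against 18.4, 16.5 and 20 CPM (log2 change 0.57 ± 0.11, adjusted p = 0.00021), so of 3 endothelial markers that could be tested 1 rose and 1 fell. In BMP signalling, 4 of 14 tested genes fell and 1 rose (6 and 1), and 2 fell without control replicate 1 and without control replicate 3. The ligand gene BMP2 went from 4.85, 7.62 and 5.58 CPM to 2.9, 2.56 and 3.27 CPM (log2 change −1.01 ± 0.26, adjusted p = 0.00426), the target ID2 from 47.2, 46.7 and 49.4 CPM to 29, 34.5 and 32.9 CPM (log2 change −0.57 ± 0.09, adjusted p = 7.02e-06) and the target ID3 from 50.2, 49.9 and 50.8 CPM to 69.4, 56 and 60.8 CPM (log2 change 0.30 ± 0.08, adjusted p = 0.00538), so the ID genes did not move together. ID3 was not called in a fit of all 6 H1 groups. In WNT signalling, 2 of 13 tested genes fell and 1 rose (1 and 1), and 1 fell when knockdown replicate 2 or any 1 control was left out. SFRP1, a secreted antagonist, had 390.0, 373 and 395 CPM against 218, 224 and 214 CPM (log2 change 0.82 ± 0.05, adjusted p = 4.65e-17). AXIN2, a feedback target, had 18.3, 20.4 and 16.4 CPM against 29.4, 26.5 and 30.6 CPM (log2 change −0.67 ± 0.11, adjusted p = 2.96e-05).

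Of 26 tested genes of the extracellular matrix and integrins, 7 rose and 9 fell (10 and 6 with GC and length trends removed). The number that rose was 4 without knockdown replicate 2. The number that fell was 5 without knockdown replicate 2, 4 without control replicate 1, 4 without control replicate 3 and 4 in a fit of all 6 H1 groups. FN1, fibronectin, had 359, 359 and 378 CPM against 522, 541 and 521 CPM (log2 change −0.53 ± 0.04, adjusted p = 3.8e-12). COL6A1, a chain of collagen VI, had 214, 166 and 166 CPM against 265, 264 and 264 CPM (log2 change −0.54 ± 0.06, adjusted p = 1.75e-08). SPARC, a collagen-binding glycoprotein, rose by 0.27 and the fibronectin receptor gene ITGA5, from 60.3, 58 and 58 CPM to 74.2, 72.6 and 75.7 CPM, by 0.34. The summed level of 9 fibroblast markers was 606 to 644 CPM in the knockdown and 703 to 721 CPM in the control libraries, chiefly THY1, COL1A1 and COL1A2, whereas LUM had 0 counts, and DCN and COL3A1 1 count each, in all 6 libraries together.

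Chaperones fold proteins and the proteasome degrades them. The list of cytosolic and mitochondrial chaperones was added after values were seen, and is a description: of 23, 15 rose and 2 fell (14 and 0 with GC and length trends removed). The number that fell was 1 when knockdown replicate 2, knockdown replicate 3 or control replicate 1 was left out. HSP90AA1, the inducible HSP90, had 3096, 3258 and 3064 CPM in the knockdown libraries and 2208, 2263 and 2175 CPM in the controls (log2 change 0.50 ± 0.04, adjusted p = 8.56e-14). HSPH1, an exchange factor for HSP70, had 252, 261 and 256 CPM against 179, 187 and 189.5 CPM (log2 change 0.47 ± 0.05, adjusted p = 1.74e-09). The HSP90 cochaperone CHORDC1 went from 79.7, 94.4 and 85.8 CPM to 135, 136 and 123 CPM (log2 change 0.61 ± 0.06, adjusted p = 3.28e-09) and AHSA1, which speeds the ATPase of HSP90, from 144, 138 and 150.4 CPM to 188, 209 and 192 CPM (log2 change 0.45 ± 0.05, adjusted p = 7.39e-08). HSF1, the factor that drives heat shock genes, was lower, at 45.9, 41.7 and 41.6 CPM against 56.2, 54.3 and 51.1 CPM (log2 change −0.32 ± 0.08, adjusted p = 0.00329), and was not called once GC and length trends were removed. Of 36 tested proteasome subunits, 18 rose and 0 fell (16 and 0), led by PSMD12 of the regulatory particle at 118, 134 and 121 CPM against 89, 83.4 and 89.5 CPM (log2 change 0.51 ± 0.06, adjusted p = 9.67e-08) and PSMD1, which went from 282, 287 and 278 CPM to 341, 357 and 347 CPM (log2 change 0.30 ± 0.05, adjusted p = 4.01e-06). The chaperones of the endoplasmic reticulum rose in 6 of 15 cases and fell in 0 (4 and 0), and 3 rose without control replicate 3 and in a fit of all 6 H1 groups. With knockdown replicate 1 or knockdown replicate 3 left out, 1 fell. PDIA3 went from 784, 772 and 779 CPM to 947, 994 and 949 CPM (log2 change 0.31 ± 0.04, adjusted p = 2.4e-07), whereas the unfolded protein response genes HERPUD1 and DNAJB9 were not called (0.02 and −0.02).

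ATF4 raises genes of amino acid synthesis and uptake when amino acids are short. Of 18 such genes, 7 rose and 0 fell (8 and 0), with a median of 0.11. PSAT1, of serine synthesis, had 418, 423 and 419.7 CPM against 290.5, 288 and 298 CPM (log2 change 0.52 ± 0.04, adjusted p = 7.02e-12), and 4 pseudogenes are named after it. PCK2, the mitochondrial PEP carboxykinase, had 94.4, 91.7 and 96.5 CPM against 68.7, 74.7 and 68.7 CPM (log2 change 0.42 ± 0.07, adjusted p = 8.6e-06). The transporter gene SLC7A5 had 508, 443 and 478 CPM against 378, 376 and 345 CPM (log2 change 0.38 ± 0.05, adjusted p = 1.87e-07). SLC7A11, CHAC1 and DDIT3, also targets, were not called (0.07, 0.23 and −0.32). Of 20 cytosolic tRNA synthetase genes, a list added after values were seen, 14 rose and 1 fell (12 and 2), and 9 rose without knockdown replicate 2 and 2 fell without knockdown replicate 3. GARS1, for glycine, went from 318, 305 and 329 CPM to 403, 412 and 402 CPM (log2 change 0.35 ± 0.04, adjusted p = 1.95e-07), and QARS1, for glutamine, was the member that fell, from 328, 337 and 328 CPM to 292, 259.8 and 267 CPM (log2 change −0.28 ± 0.05, adjusted p = 4.7e-05). Of 11 tested NRF2 targets, 5 rose and 2 fell (5 and 2). NQO1, a quinone reductase, had 50.6, 50.4 and 50.1 CPM against 27.9, 25.4 and 29.1 CPM (log2 change 0.87 ± 0.09, adjusted p = 1.12e-09). GCLM, for glutathione synthesis, had 24.6, 21.7 and 22.8 CPM against 14.8, 16.7 and 14.5 CPM (log2 change 0.60 ± 0.12, adjusted p = 0.000372). TKT and TALDO1, of the pentose phosphate pathway, were the members that fell (−0.24 and −0.25).

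Of 18 S phase genes, 6 rose and 2 fell (6 and 1 with GC and length trends removed), and the number that fell was 4 without knockdown replicate 1 and 1 when any other library was left out. TYMS, thymidylate synthase, had 40.5, 37 and 38.8 CPM in the knockdown libraries and 27.5, 26.5 and 26.2 CPM in the controls (log2 change 0.53 ± 0.09, adjusted p = 5.65e-05). PCNA, the replication clamp, had 313, 318 and 274 CPM against 229, 243 and 247 CPM (log2 change 0.33 ± 0.05, adjusted p = 9.78e-06). CDT1, a licensing factor, was at 73.2, 49.4 and 56.6 CPM against 80.8, 79.6 and 84.9 CPM (log2 change −0.45 ± 0.09, adjusted p = 0.000174), with knockdown replicate 1 nearest the controls. Of 17 genes of mitosis, 4 rose and 0 fell (2 and 0), and 2 rose without knockdown replicate 3. With knockdown replicate 1 or knockdown replicate 2 left out, 1 fell. MKI67 was not called at 320.3, 337 and 319 CPM in the knockdown and 356, 341 and 358 CPM in the control libraries (log2 change −0.11 ± 0.05, adjusted p = 0.0693), but was called without knockdown replicate 2. Of 16 tested interferon response and MHC class I genes, 5 fell and 0 rose (4 and 0): IFITM3 had 185, 164 and 175 CPM against 273, 266 and 272 CPM (log2 change −0.63 ± 0.05, adjusted p = 1.72e-12). B2M, the light chain of MHC class I, had 69.5, 74.8 and 71.7 CPM against 93.7, 93.1 and 91.9 CPM (log2 change −0.37 ± 0.06, adjusted p = 5.48e-05). IFIT1, IFIT3 and ISG15, induced by interferon, were not called (0.14, −0.12 and −0.23). IFITM1 and IFITM2 share exons in the annotation, so their counts are uncertain. Of 8 tested metallothionein list genes, 3 fell and 0 rose (2 and 0), and 1 fell without knockdown replicate 2, control replicate 1 or control replicate 3 in turn. MT1X, which binds zinc, went from 54.4, 48.8 and 62.2 CPM to 30.8, 30.5 and 38.8 CPM (log2 change −0.72 ± 0.10, adjusted p = 3.8e-07). Of 451 tested zinc finger genes with a ZNF symbol, 17 rose and 29 fell (16 and 29). Of 59 replication-dependent histone genes, 12 could be tested and 0 were called. Those 12 summed to only 28.7 to 36.9 CPM in the knockdown and 35 to 37.8 CPM in the control libraries. With so few counts in libraries of polyadenylated RNA, the 0 says little of histone genes at large. In edgeR's test 1 of the 12 had an unadjusted p under 0.05, and DESeq2 called 0. Of 15 genes of a ribosome biogenesis list, 4 rose and 0 fell (4 and 0; 1 fell without knockdown replicate 1). Among the 4 was ODC1, an entry enzyme of polyamine synthesis rather than a ribosome factor, at 99.4, 111 and 108 CPM against 66.9, 60 and 61.3 CPM (log2 change 0.75 ± 0.07, adjusted p = 4.08e-11).

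The change of each gene was set against its change in the other knockdowns by an interaction test, with the ZNF8 knockdown in naive cells and the ZIC2 knockdown in ectoderm, which share no library with the CARHSP1 comparison. In both, the target and the cell state differ at once, so these cannot be told apart. The CARHSP1 change differed from the ZNF8 change in 3592 of 16989 genes (21.1%), higher in 1659 (9.77%) and lower in 1933 (11.4%). It differed from the ZIC2 change in 4596 of 16319 genes (28.2%), higher in 2062 (12.6%) and lower in 2534 (15.5%). In the same fits, 1908 genes (11.2%) were called higher and 1902 (11.2%) lower in the ZNF8 knockdown, and 2736 (16.8%) higher and 2240 (13.7%) lower in the ZIC2 knockdown.

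**Figure D4:**
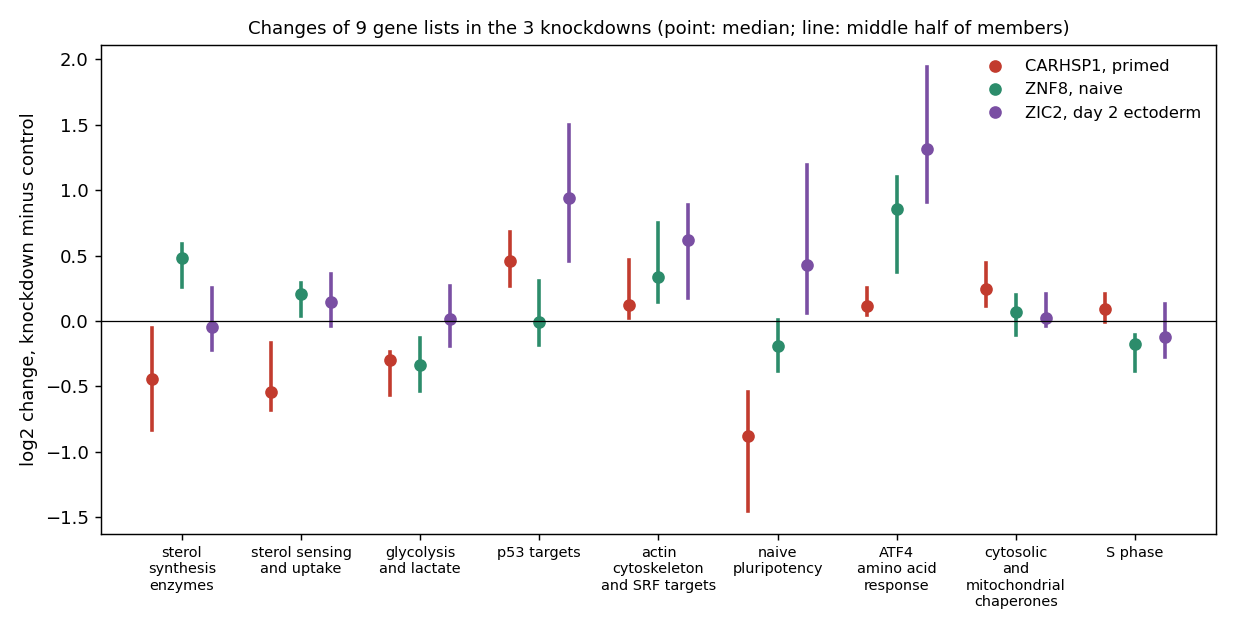
Log2 change (y axis, knockdown minus its own control) of the members of 9 gene lists in the CARHSP1 knockdown in primed cells (red), the ZNF8 knockdown in naive cells (green) and the ZIC2 knockdown in day 2 ectoderm (purple). Points are list medians and lines the middle 50% of members. For sterol synthesis genes the medians are −0.45, 0.48 and −0.04, and for p53 targets 0.46, −0.01 and 0.94.

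Of the 20 synthesis genes, 15 were called higher and 0 lower in the ZNF8 knockdown, and 14 had a lower change, and 1 a higher one, in the CARHSP1 knockdown by the interaction test. In the ZIC2 knockdown 5 were higher and 6 lower, and 12 had a lower CARHSP1 change and 2 a higher one. HMGCS1 had 587, 564 and 616 CPM with the ZNF8 knockdown and 387, 378 and 392 CPM in the naive controls, a rise by 0.61, and the difference of its changes, CARHSP1 minus ZNF8, was −1.36 on the log2 scale (adjusted p = 1.03e-21). Its direction was thus opposite in the 2 knockdowns. Glycolysis genes fell in both the CARHSP1 and the ZNF8 knockdown: 17 of 25 were lower in the ZNF8 knockdown and 1 higher, and the interaction called 6 higher and 7 lower in the CARHSP1 change. In the ZIC2 knockdown 7 were higher and 7 lower, and the interaction called 4 higher and 14 lower. SLC2A1 rose there, from 83.4, 82.9 and 73.4 CPM in the ectoderm controls to 161, 148 and 129 CPM, and the difference of its changes was −1.82 (adjusted p = 3.66e-15).

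Of the 27 p53 targets, 3 were called higher and 5 lower in the ZNF8 knockdown, and 14 had a higher CARHSP1 change, and 0 a lower one, by the interaction test, among them POLH, with 21.2, 19.9 and 20.9 CPM against 25.1, 22.7 and 24.5 CPM in naive cells and a difference of 1.43 (adjusted p = 2.28e-07). In the ZIC2 knockdown 23 were higher and 0 lower, and 12 of the 27 had a lower change, and 2 a higher one, in the CARHSP1 comparison. CDKN1A went from 10.5, 8.07 and 10.6 CPM to 66.1, 65.9 and 59 CPM in ectoderm, a difference of −1.68 (adjusted p = 6.99e-08). Of the 29 actin and SRF genes, 19 were higher in the ZNF8 and 20 in the ZIC2 knockdown, with 1 lower in each, and 14 and 16 of the 29 had a lower change in the CARHSP1 comparison by the test, and 5 and 3 a higher one. ATF4 genes rose in 12 of 18 cases in the ZNF8 and in 18 of 18 in the ZIC2 knockdown, and 11 and 16 of the 18 had a lower change, and 0 a higher one, in the CARHSP1 comparison. Proteasome subunits and S phase genes went the other way: 14 of 36 and 12 of 18 had a higher CARHSP1 than ZNF8 change, and 11 and 9 a higher one than in the ZIC2 knockdown. A lower change was called for 2 and 0 of them against ZNF8 and for 1 and 2 against ZIC2. S phase genes mostly fell where called in the other knockdowns, with 0 higher and 9 lower for ZNF8 and 1 higher and 6 lower for ZIC2. Of the proteasome subunits, 3 were higher and 2 lower for ZNF8, and 5 higher and 3 lower for ZIC2. For the naive genes, 6 of 14 had a lower CARHSP1 than ZNF8 change and 9 a lower one than the ZIC2 change, with 1 and 0 higher. In the ZNF8 knockdown itself 7 of the 14 were called lower and 1 higher, and in the ZIC2 knockdown 1 lower and 5 higher.

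Among single genes called in the CARHSP1 comparison with a mean of at least 5 CPM, PKDCC, a secreted kinase, stood furthest from the ZNF8 knockdown. It had 22.7, 18.5 and 20.2 CPM in the CARHSP1 knockdown and 15.6, 15.5 and 16.1 CPM in the primed controls, but 2.24, 1.67 and 3.26 CPM with the ZNF8 knockdown against 74.5, 83.4 and 82.2 CPM in the naive controls (difference 5.46 ± 0.19, adjusted p = 1.62e-26). COL2A1, a collagen of cartilage, had 0.796, 0.228 and 0.773 CPM and 13.7, 16.3 and 12.9 CPM in these naive libraries (difference 5.13 ± 0.30, adjusted p = 4.09e-18). LIPG, an endothelial lipase, fell from 14.7, 13.2 and 13.8 CPM to 5.95, 5.11 and 4.92 CPM in primed cells and went from 0.754, 1.63 and 1.27 CPM to 2.44, 3.57 and 4.72 CPM in naive cells (difference −2.91 ± 0.37, adjusted p = 5.67e-08). Against the ZIC2 knockdown, SERPINB9, an inhibitor of granzyme B, went from 254, 264 and 263 CPM to 124, 134 and 131 CPM in primed cells and from 1.48, 0.797 and 1.27 CPM to 23.1, 28.4 and 14.4 CPM in ectoderm (difference −5.26 ± 0.25, adjusted p = 8.07e-16). TDGF1, the Nodal co-receptor, had 1019, 1067 and 1113 CPM against 944, 890.0 and 905 CPM in primed cells and 178, 212 and 200.1 CPM against 7.7, 5.38 and 6.87 CPM in ectoderm (difference −4.68 ± 0.11, adjusted p = 8.47e-24), and a gene model shares its exons. COL2A1, SERPINB9 and LIPG were near 1 CPM or lower in a group, so the sizes of their differences depend on the fit.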

How the data were processed

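RNA was measured by polyadenylated RNA sequencing (TruSeq Stranded mRNA kit, per the labels' protocols) in 24 libraries, of which the 6 from the CARHSP1 knockdown and its primed control are the main subject. The authors deposited 2 tables of raw counts per gene, with no normalization. The H1 libraries, 18 in number, share a table, the 6 of H9 have their own, and the counts of each library sum to a different total. HISAT2 and GRCh38 are named in the submitters' processing notes. For the counting program, its strand setting and its annotation the sources used here give nothing, so reads of overlapping genes, of genes on opposite strands and of near-identical copies may have been shared. Of 624 genes checked, 78 share exons with another gene on the same strand and 106 have pseudogenes named after them. Only some of these are marked as uncertain above. A further 27 columns of the H1 table match no library given here and were not used. Gene symbols came from a separate list of gene names, which gave 60401 of the 60671 identifiers a symbol. Types, positions and transcript sequences came from GENCODE 29, in which 58453 identifiers were found. Pseudogenes were sought there by these symbols, so copies named after an older symbol would be missed.

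Counts were filtered with filterByExpr, scaled by TMM and tested with edgeR 4.0.16 in R 4.3.3 (quasi-likelihood F test, Benjamini-Hochberg adjustment over all tested genes, threshold 0.05), with limma 3.58.1. The CARHSP1 comparison used its 6 libraries, and the interaction tests used 12. The main test had no replicate block, since the labels do not say that replicate numbers pair libraries. Libraries with the same number deviated together with correlations of 0.0112, 0.0283 and 0.023. For the other pairs of a knockdown and a control library the correlations ran from −0.0303 to 0.00909. As an alternative, offsets per library took out GC and length trends, for the 99.6% of tested genes with a GC value. DESeq2 1.42.0, other size factors, no filter, the replicate number as a block, a fit of all 6 H1 groups and leaving out each library in turn were the other alternatives. In simulated data with the means and library sizes of the CARHSP1 comparison, 200 of 15642 genes were changed. The test recovered 82.1% of genes changed 1.5-fold and 100% of those changed 2-fold. No gene below that level was changed, and recovery was not split by level, so these shares do not speak for genes of few counts.

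The members and gene lists were chosen with earlier results of these data known. The lists of chaperones, tRNA synthetases and TRAIL receptors, and single genes said to be so, were added after their values were seen. Genes were named by a rule: CARHSP1, the 15 largest changes in each direction (groups not overlapping, mean level 5 CPM or more), up to 6 members per list by adjusted p or any member of lists described in full, 8 genes per interaction test, and genes within 500 kb of CARHSP1. Some genes that the rule would name are not reported here.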

Additional observations from a re-analysis of the deposited data

Results flagged for a closer look

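The change after CARHSP1 knockdown differed from that of another knockdown by the interaction test (edgeR's quasi-likelihood test, adjusted p under 0.05) in 3592 genes for ZNF8 in naive cells and in 4596 genes for ZIC2 in ectoderm. Against ZNF8, the difference of log2 changes was 5.46 for PKDCC, 5.13 for COL2A1, 1.43 for POLH, −1.36 for HMGCS1 and −2.91 for LIPG. Against ZIC2, it was −1.68 for CDKN1A, −1.82 for SLC2A1, −4.68 for TDGF1 and −5.26 for SERPINB9. Target and cell state differ together in both comparisons and cannot be told apart.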

How the results depend on the processing

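With 1 library left out in turn, the number of genes called in the CARHSP1 comparison ran from 2064 (without control replicate 1) to 3415 (without knockdown replicate 1), and was 2066 without knockdown replicate 2. The cause was not tested. It was 3150 with DESeq2's size factors, 2837 without the filter, 2569 with DESeq2, 2258 with all 6 H1 groups in one fit and 2619 with GC and length trends removed. Leaving out 1 library gave 2991 to 3668 genes in the interaction with ZNF8 and 3758 to 4628 in that with ZIC2. With the replicate number as a block, 3404, 3355 and 4707 genes were called in these 3 comparisons. With the block and GC and length trends removed together, 2655 were called in the CARHSP1 comparison. By the labels, same-numbered libraries share only a number. The correlations of their deviations were 0.0112, 0.0283 and 0.023, against −0.0303 to 0.00909 for the other pairs. Of 184 changes and differences named in the text, 168 kept their side of the threshold under every alternative that gave an adjusted p. A further 12 lost the call in at least 1 and 4 gained it in at least 1. Of those called in the main fit 0 reversed, and for the others direction was not compared. Most were named for a small adjusted p or a large change in these data, which favours stable calls. Of all 3152 called genes, 2066 were called in the same direction with GC and length trends removed. Without control replicate 1 it was 1983. PKDCC lost its call in the CARHSP1 comparison without knockdown replicate 1 or 3 or any 1 control. Genes of few counts are limited by depth. In the simulation 200 of 15642 genes were changed, and 82.1% of the 1.5-fold changes were found. That share was not split by level, so it says nothing of genes of few counts.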

Other observations

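The 13 protein-coding genes of the mitochondrial genome moved in both directions, with 7 higher and 4 lower in the CARHSP1 knockdown (7 and 5 with GC and length trends removed). MT-ATP8, a subunit of ATP synthase, had 1836, 1927 and 1645 CPM in the knockdown and 1077, 1054 and 1163 CPM in the control libraries (log2 change 0.71 ± 0.05, adjusted p = 1.55e-15). MT-ATP6, whose reading frame overlaps that of MT-ATP8, had 5495, 6298 and 6546 CPM and 4793, 4694 and 4996 CPM (log2 change 0.34 ± 0.04, adjusted p = 8.91e-08). MT-ND5, a subunit of complex I, had 2749, 2966 and 3143 CPM and 3592, 3535 and 3726 CPM (log2 change −0.29 ± 0.04, adjusted p = 5.42e-07), and MT-ND6, encoded on the other strand, had a log2 change of −0.28. Of 77 tested nuclear genes of the respiratory chain, 9 rose and 8 fell (4 and 5).

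Of 79 tested cytosolic ribosomal protein genes, 21 rose and 12 fell, against 13 and 17 with GC and length trends removed, so the balance turned with that setting. Many of these genes have processed copies, and their counts are uncertain. Of 244 tested solute carriers, 19 rose and 41 fell (14 and 31). Among them SLC7A8, an amino acid exchanger, fell by 0.42 on the log2 scale, and was picked after its values were seen.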
